A study of Drosophila melanogaster with 22 samples.

Results

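The 10 genes described here are the pair-rule genes run, eve, ftz, odd and prd and the segment polarity genes en, inv, gsb, gsb-n and hh. They were taken by exact, case-sensitive symbol from the deposited count and TPM tables, and all 10 were found among the 15339 named genes of the count table. The series holds RNA-seq of 22 small pools of cells from brains of Drosophila melanogaster larvae raised at 25 °C, which were dissociated and sorted by their GFP label, 10 at a time, with a robot. Neuroblasts are the neural stem cells and were collected 50 h after larvae hatched. They came as a pool labelled as all neuroblasts, as mushroom body, antennal lobe and type II neuroblasts, and as mushroom body neuroblasts labelled with a 2 h wait or with 3 washes, with 3 libraries in each of these 6 groups. Neurons and glia came from wandering larvae, with 2 libraries each. The sources used here give neither the genotypes and GFP drivers, nor the read strand, nor the details of the wait and the washes, nor whether replicates were separate preparations. The p-values therefore measure the spread between these libraries, which may be technical.

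Pair-rule genes encode transcription factors that are expressed in stripes in the early embryo and divide it into segments. Segment polarity genes then fix the pattern within each segment, where the homeodomain protein En keeps posterior cells distinct and turns on the secreted ligand hh. Many of these genes are used again in the embryonic nervous system, where they help to give neuroblasts and neurons their individual identities.

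Libraries held 47 to 124 cells, 3150371 to 14282246 gene counts and 8958 to 11779 detected genes. Pairs of replicates correlated at 0.953 to 0.977 on log2(CPM + 1) in the neuroblast groups, at 0.872 in neurons and at 0.841 in glia, so the neuron and glia libraries stood apart from their partners. The labels were checked against markers. The type II markers pnt, Sp1 and btd summed to 395 to 487 TPM in type II neuroblasts and to at most 94.2 TPM in any library of another group. The antennal lobe gene ems was at 76.8 to 105 TPM in antennal lobe neuroblasts and at most 20.7 TPM elsewhere, and Rx was at 69.0 to 103 TPM in the mushroom body groups and at most 55.3 TPM elsewhere. The list of 5 mushroom body markers did not separate that lineage, with a sum of 1833 to 2360 TPM in standard mushroom body and 2686 to 3764 TPM in antennal lobe neuroblasts, and its member Imp was high in every neuroblast group. In glia, 7 glial markers summed to 1623 to 2099 TPM. Markers of other cells were present too, with 108 to 373 TPM for 7 neuroblast markers and 76.4 to 206 TPM for 7 blood cell markers. A list of 4 fat body markers summed to 458 to 1441 TPM in glia and to at most 19.3 TPM in any neuroblast or neuron library. Of these 4, Lsp2 had no count in either glia library and Fbp1 none in library 1, where the sum came from Rfabg and Ilp6 alone. In neurons, 8 neuronal markers summed to 4340 to 6285 TPM, 7 neuroblast markers to 7.24 to 12.1 TPM, and the neuroblast marker ase was at 0. Markers of other cells were not absent there, with 264 to 326 TPM for the glial and 32.9 to 45.4 TPM for the blood cell list. The neuroblast libraries held 227 to 432 TPM of the glial list and at most 22.8 TPM of the blood cell list.

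Most of the 10 genes were scarce. In TPM, which corrects for gene length and so allows genes to be compared, the highest library reached 49.0 for odd, 41.0 for run, 39.1 for eve, 21.9 for hh, 17.6 for gsb, 17.3 for gsb-n, 17.0 for inv, 11.98 for en, 9.42 for ftz and 2.81 for prd. A group mean of at least 10 TPM was reached by 1 of the 10 genes in the pool, in antennal lobe neuroblasts, in type II neuroblasts, in the 3-wash group and in glia, by 4 in neurons, and by none in the other 2 mushroom body groups. Between 37.6% and 40.7% of all genes were at this level in a group. The ligand gene hh was the most widely found, with 10 or more counts in 20 of 22 libraries. By the same measure odd was found in 16, en in 13, run and gsb-n in 12, inv and gsb in 8, ftz in 4, and eve and prd in 3. All 10 genes together held 70 to 545 counts in a library, so that counting error is large for most of them, and intervals below cover that error alone.

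**Figure D1:**
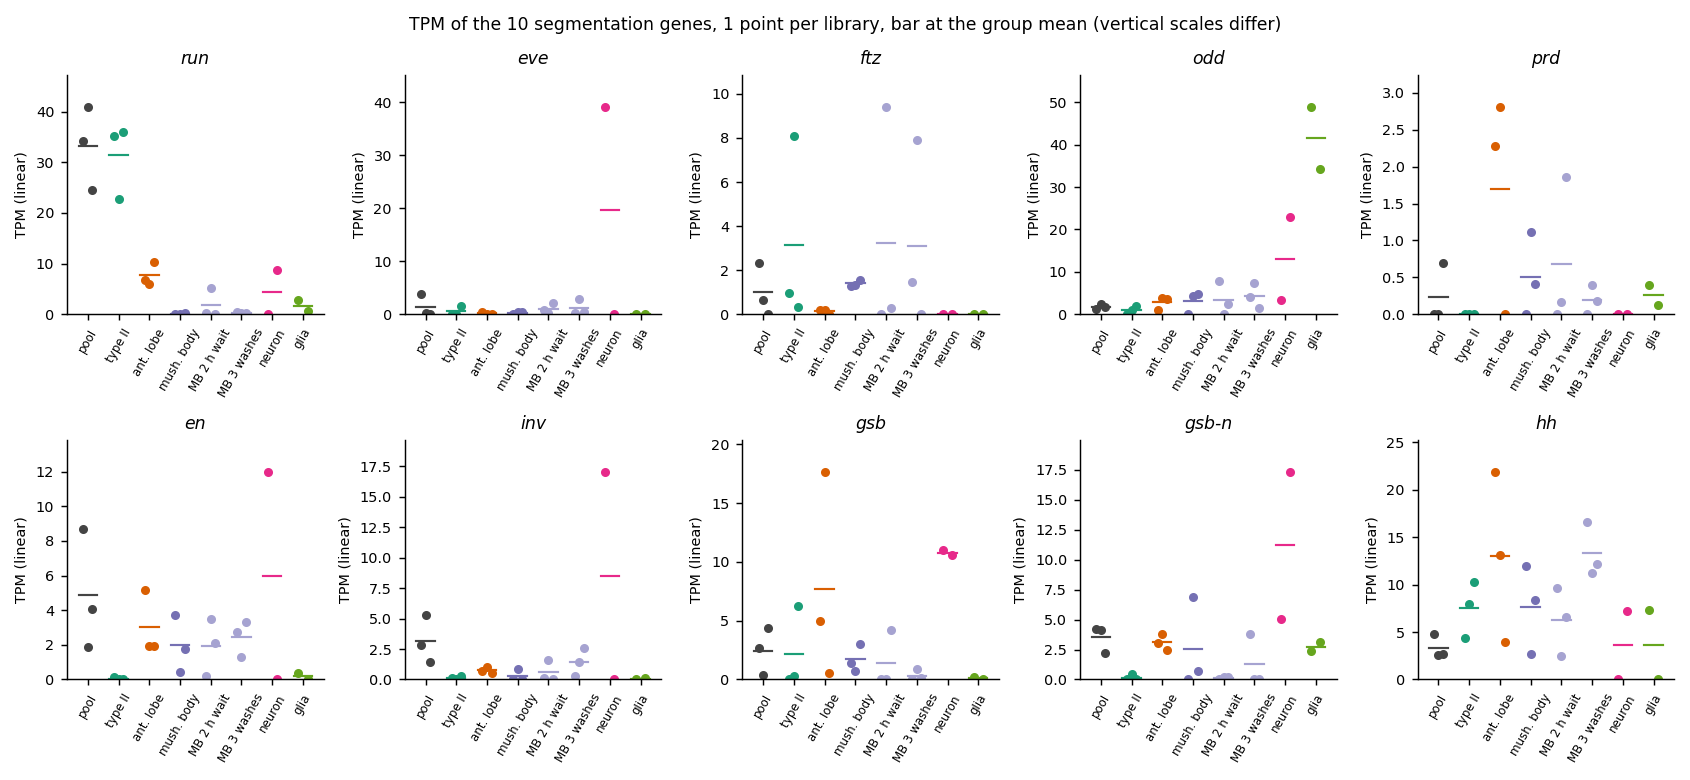
TPM of each of the 10 genes in each of the 22 libraries (1 point per library, line at the group mean, linear axes that differ between genes). MB stands for mushroom body. In the panel of run, the pool and type II libraries lie between 22.8 and 41.0 TPM, and in that of odd the 2 glia libraries lie at 49.0 and 34.1.

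The gene run (FBgn0003300, chromosome X, 20565468 to 20568348 in dm3) encodes Runt, the founding member of the RUNX family of transcription factors. It was the member most unequal between lineages: abundant in the pool and in type II neuroblasts, lower in antennal lobe neuroblasts and almost missing in mushroom body neuroblasts. The pool libraries held 34.3, 41.0 and 24.6 TPM (33.3 ± 8.25, SD, n = 3), from 289, 350 and 197 counts. The type II libraries held 35.3, 22.8 and 36.1 TPM (31.4 ± 7.44), and the antennal lobe libraries 6.66, 6.05 and 10.4 TPM (7.69 ± 2.33). The mushroom body libraries held 0, 0 and 0.223 TPM, which is 1 count in all. No library of the pool or of type II overlapped one of antennal lobe or mushroom body, and the pool and type II ranges overlapped each other. The order of the means was thus pool, type II, antennal lobe, mushroom body, and the first 2 did not differ beyond their spread. In a bulk pool, fewer cells with a transcript and less transcript per cell cannot be told apart.

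These comparisons were made with edgeR's quasi-likelihood test over 9249 genes in the 12 standard neuroblast libraries, with Benjamini-Hochberg adjustment and a call below 0.05. Of the 10 genes, 7 entered, and eve, ftz and prd were too low to be tested. In antennal lobe neuroblasts run was lower than in the pool, by -2.05 ± 0.38 on the log2 scale (SE, adjusted p = 0.000695). It was also lower there than in type II neuroblasts, by -2.03 ± 0.39 (adjusted p = 0.000918). Here and below, the SE of an edgeR change is the absolute change divided by the square root of the test's F statistic. It is not a fitted standard error, and it does not cover the counting error of a group near 0. Between type II neuroblasts and the pool the log2 change was -0.02 ± 0.36 (adjusted p = 0.989). Since mushroom body neuroblasts held 1 count, the ratio of summed counts is given with its 95% Poisson interval. Against mushroom body neuroblasts, run was higher by a factor of 387 in the pool (69.2 to 15300), of 385 in type II (68.8 to 15260) and of 93.8 in antennal lobe neuroblasts (16.6 to 3727). The edgeR adjusted p of these 3 differences was 6.12e-09, 4.09e-09 and 1.49e-06.

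The gap between antennal lobe neuroblasts and the pool was not called when all 22 libraries were fitted together (adjusted p = 0.315), nor was the gap to type II (adjusted p = 0.397), while the changes in run stayed at -2.04 and -2.01. Of the lineage calls described below, that fit kept none of those of en, inv and hh either. The lineage comparisons with the pool share its 3 libraries.

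The near absence of run held in 8 of the 9 mushroom body libraries, with and without the wait or the washes, which had 0 to 3 counts. The exception was library 2 of the 2 h wait, with 30 counts or 5.15 TPM. This gene did not enter the handling test, because of its low counts, and without a filter on low counts its adjusted p in edgeR was 0.602. In that library the mushroom body genes retn and Rx were at 289 and 80.0 TPM, against 247 to 250 and 69.0 to 93.1 TPM in the other 2 libraries of the wait. Its type II genes Sp1, btd and pnt were at 0, 2.46 and 6.31 TPM and its antennal lobe genes ems and mid at 2.23 and 1.75 TPM. With acj6 and vvl, the antennal lobe list summed to 85.5 TPM, against 108 and 112 TPM in the other 2 libraries of the wait. The part of other cells in this value was not tested beyond these markers.

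Over the 22 libraries, the genes whose log2(TPM + 1) ran most like that of run among 9491 others with a group mean of at least 10 TPM were POSH (Pearson r = 0.890), CG17508 (0.857) and eya (0.822). These correlations are descriptions across libraries that share groups, and the genes were picked by them, so shared levels in single libraries add no separate evidence. By correlation over the 8 group means POSH, CG17508 and eya ranked 15, 1 and 8. The gene eya, which encodes a transcription cofactor with phosphatase activity, stood at 84.3 TPM in type II neuroblasts, 20.9 in the pool, 8.17 in antennal lobe and 0.267 in mushroom body neuroblasts. The library of the 2 h wait with 5.15 TPM of run also held 6.10 TPM of eya, where the other 8 mushroom body libraries held at most 0.599 TPM. Unlike run, eya was high in neurons, with 17.8 and 71.9 TPM, where run stood at 0 and 8.82 TPM.

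**Figure D2:**
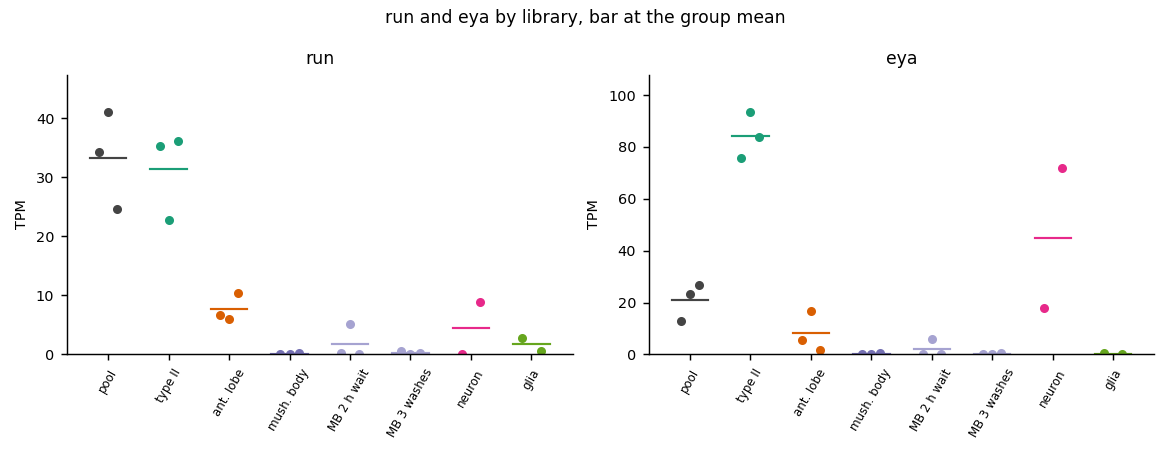
TPM of run (left) and eya (right) in each library, with a line at the group mean. Both are near 0 in mushroom body libraries except library 2 of the 2 h wait, where run is at 5.15 and eya at 6.10 TPM, and type II libraries are high for both.

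The homeodomain genes en (FBgn0000577, chromosome 2R, 7411509 to 7415388) and inv (FBgn0001269, chromosome 2R, 7363210 to 7394685 in dm3) are sister genes that lie 16823 bases apart with no annotated gene between them. In type II neuroblasts en was almost missing. It was at 0.152, 0 and 0 TPM there (1 count in all), against 8.71, 1.87 and 4.09 TPM in the pool, 5.17, 1.91 and 1.94 TPM in antennal lobe and 3.71, 0.422 and 1.78 TPM in mushroom body neuroblasts. Each library of the other 3 lineage or pool groups was above every type II library. By summed counts en was higher than in type II neuroblasts by a factor of 78.7 in the pool (13.9 to 3131), of 49.9 in antennal lobe (8.70 to 1998) and of 30.8 in mushroom body neuroblasts (5.04 to 1265). In edgeR these passed with adjusted p = 0.00648, 0.0110 and 0.0277. The third is the least secure: without mushroom body library 1 its adjusted p was 0.106, without library 3 it was 0.0507, and without type II library 2 or 3 it was 0.0990 or 0.0973. It was also lost with spike-in scaling (adjusted p = 0.0541) and in limma on TPM (0.150). The call of antennal lobe against type II was lost without type II library 3 (adjusted p = 0.0505) and in limma on TPM (0.0528).

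The sister gene inv was also low in type II neuroblasts, at 0.124, 0 and 0.315 TPM, against 2.84, 5.27 and 1.45 TPM in the pool. Type II and pool libraries did not overlap, and the ratio of counts was 21.1 (7.04 to 104), but the edgeR test was not passed (adjusted p = 0.0841). DESeq2 and limma on TPM did call inv lower there. Antennal lobe libraries held 0.691, 1.04 and 0.531 TPM and mushroom body libraries 0, 0.866 and 0 TPM of inv. All of these also lay below every pool library, so a low level of inv was not particular to type II neuroblasts. In edgeR the log2 change of inv against the pool was -2.00 ± 1.21 in antennal lobe (adjusted p = 0.279) and -3.31 ± 1.35 in mushroom body neuroblasts (adjusted p = 0.106). Between mushroom body and type II neuroblasts it was 0.94 ± 1.51 (adjusted p = 0.762). Across all 22 libraries log2(TPM + 1) of en and inv correlated at r = 0.664, a description that rests on few counts, and both had 10 or more counts in 8 of the 13 libraries where either had them.

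Against the mean of the 3 sorted lineages, the pool was higher in run, en and inv, but not against each lineage. This comparison averages log2 changes, so a lineage near 0 weighs heavily. In edgeR run was not called in type II neuroblasts (adjusted p = 0.989). The change of en was -0.67 ± 0.93 in antennal lobe (adjusted p = 0.678) and -1.31 ± 0.96 in mushroom body neuroblasts (adjusted p = 0.403). For inv no single lineage was called against the pool. The log2 change of the lineages minus the pool was -3.45 ± 0.35 for run (edgeR, adjusted p = 4.05e-07), -2.65 ± 0.76 for en (adjusted p = 0.0248) and -3.19 ± 0.91 for inv (adjusted p = 0.0244), fitted values that depend on the prior count where a lineage is near 0. In edgeR no member was called in the other direction and 4 did not pass, while DESeq2 and edgeR without a filter also called hh higher in the lineages (adjusted p = 0.0246 and 0.0267). Leaving out pool library 1 ended the calls of en (adjusted p = 0.223) and inv (0.0619), and leaving out pool library 2 that of inv (0.186) and pool library 3 that of en (0.0564). The call of en was also lost with spike-in scaling (0.0689) and in limma on TPM (0.0980). Library 1 of the pool held 83 of its 138 en counts and library 2 held 62 of its 111 inv counts.

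**Figure D3:**
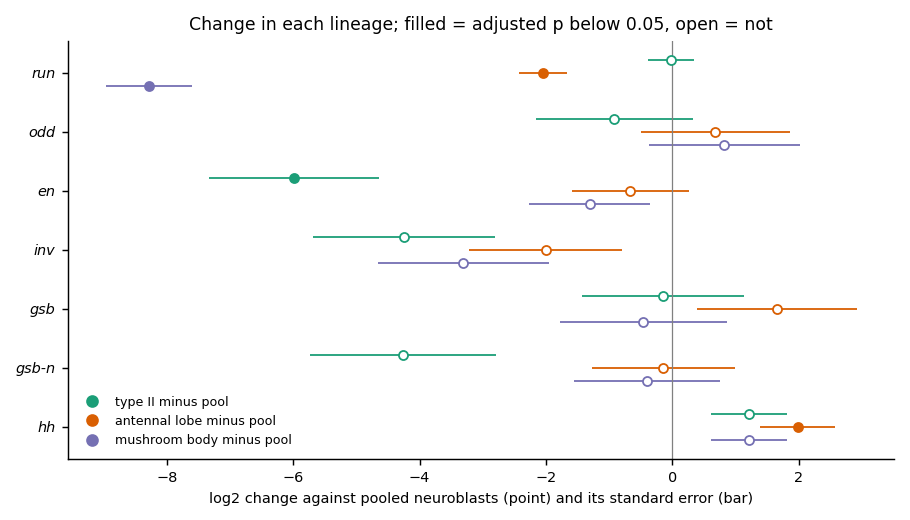
Fitted log2 change of the 7 tested genes in each lineage against pooled neuroblasts, with bars of 1 standard error derived from the F statistic. These bars do not cover the counting error of a group near 0, such as run in mushroom body neuroblasts. Filled points have an adjusted p below 0.05: run in mushroom body and antennal lobe, en in type II and hh in antennal lobe neuroblasts.

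The Pax genes gsb (FBgn0001148, chromosome 2R, 20949502 to 20952166) and gsb-n (FBgn0001147, chromosome 2R, 20927905 to 20939850 in dm3) are also neighbours, 9651 bases apart. They encode paired-box homeodomain proteins, and in the embryo gsb acts in the epidermis and in neuroblasts of each segment and turns on gsb-n. In the data gsb varied too much between replicates to be placed in a lineage. Its antennal lobe libraries held 4.94, 17.6 and 0.553 TPM, from 24, 81 and 3 counts, and the pool 2.69, 0.355 and 4.35 TPM. Type II libraries were at 0, 0.335 and 6.24 TPM and mushroom body libraries at 1.36, 0.722 and 3.04 TPM. All 4 groups overlapped, and none of the contrasts among them called gsb in edgeR, DESeq2 or limma.

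The neuronal sister gsb-n was even in the pool, at 4.20, 4.15 and 2.21 TPM, and in antennal lobe neuroblasts, at 3.01, 3.82 and 2.43 TPM. In type II neuroblasts it was at 0, 0.490 and 0 TPM, and no library there reached one of those 2 groups. Mushroom body libraries held 0, 6.87 and 0.742 TPM and so spanned both. By counts gsb-n was 22.8-fold higher in the pool than in type II (6.11 to 192) and 20.4-fold higher in antennal lobe neuroblasts (5.41 to 172), but neither passed in edgeR (adjusted p = 0.0935 and 0.0712). DESeq2 called both differences of gsb-n (adjusted p = 0.0399 and 0.0304), as did edgeR without a filter on low counts (0.0442 and 0.0359), and limma on TPM called neither. Across the 22 libraries the correlation of gsb and gsb-n was 0.379.

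The secreted ligand gene hh (FBgn0004644, chromosome 3R, 18953891 to 18967628 in dm3) was found in every neuroblast library. It stood at 4.84, 2.53 and 2.70 TPM in the pool, 21.9, 13.1 and 3.999 TPM in antennal lobe, 12, 2.67 and 8.40 TPM in mushroom body and 4.39, 7.98 and 10.3 TPM in type II neuroblasts. The pool was the lowest group mean of all 8, and its range met that of each lineage. The change of 1.98 ± 0.60 in antennal lobe neuroblasts against the pool passed (edgeR, adjusted p = 0.0243). It rested on single libraries: without antennal lobe library 1 it was 1.41 (adjusted p = 0.162), and without pool library 2 or 3 the adjusted p was 0.0873 or 0.0861. With spike-in scaling it was 1.701 (adjusted p = 0.121), and limma on TPM did not call it either (0.121). In mushroom body and type II neuroblasts the changes of hh against the pool were 1.21 ± 0.60 (adjusted p = 0.188) and 1.21 ± 0.60 (adjusted p = 0.277).

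The zinc finger gene odd (FBgn0002985, chromosome 2L, 3604222 to 3606748) was low in all neuroblasts. The 18 neuroblast libraries held 0 to 7.74 TPM, and the group means of the 4 standard groups, 0.924 to 3.00 TPM, did not differ beyond their spread. The other 3 pair-rule genes, the homeodomain genes eve and ftz and the Pax gene prd, were near the limit of detection. Among neuroblast libraries eve had at most 18 counts, in library 1 of the pool, and its annotation overlaps CR43948 on the opposite strand, whose reads cannot be told apart without strand. The homeodomain gene ftz reached 26 counts in type II library 2, 39 in library 2 of the 2 h wait and 39 in library 2 of the washes, with 0 to 14 counts in the other 15 neuroblast libraries. For prd, antennal lobe libraries held 18, 21 and 0 counts, type II libraries none, and the other neuroblast libraries at most 10.

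Counts of calls among the 7 tested genes are best read beside the share of all genes called in edgeR. Against antennal lobe neuroblasts, mushroom body neuroblasts differed in 1 member (run), with 11.8% of all 9249 genes called. Against type II they differed in 2 (run and en) and 10.4% of genes were called, and antennal lobe against type II likewise gave run and en, with 11.4% called. Against the pool the mushroom body differed in 1 member (run, 14.4% of genes called), antennal lobe in 2 (run and hh, 17.0% called) and type II in 1 (en, 5.92% called). For the mean of the 3 lineages against the pool it was 3 members, with 11.8% called. With so few genes tested, these counts are given as a description and show nothing particular to the set.

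Between the 2 neuron libraries, of 120 and 74 cells, different members were present. The first held 39.1 TPM of eve, 17.0 of inv and 11.98 of en, from 92, 97 and 56 counts, and none of these genes had a count in the second. The second held 22.8 TPM of odd, 8.82 of run and 7.19 of hh, from 130, 53 and 54 counts, where the first had 3.32 TPM of odd and no count of run or hh. The Pax genes were in both: gsb at 10.98 and 10.6 TPM and gsb-n at 5.08 and 17.3 TPM. Neither library had a count of ftz or prd. The mean of these libraries therefore describes neither of them. For eve, en and inv, the index of dispersion (chi-square per degree of freedom of the counts, given depth) was 150, 91.5 and 158, and for gsb it was 0.418.

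In the edgeR fit of pool, neurons and glia, which tested 9855 genes, 8 members entered and ftz and prd did not. Between pool and neurons 0 of 8 passed in edgeR while 24.7% of all genes did, with 1 at an unadjusted p below 0.05, 1 called by DESeq2 (odd) and 1 by limma (run). The call depended on the neuron library used. Without neuron library 2, run passed as higher in the pool (adjusted p = 0.0220), and without neuron library 1, odd passed as higher in neurons (adjusted p = 0.0191). Neurons and glia also came from older larvae than neuroblasts, so age and cell type cannot be told apart.

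**Figure D4:**
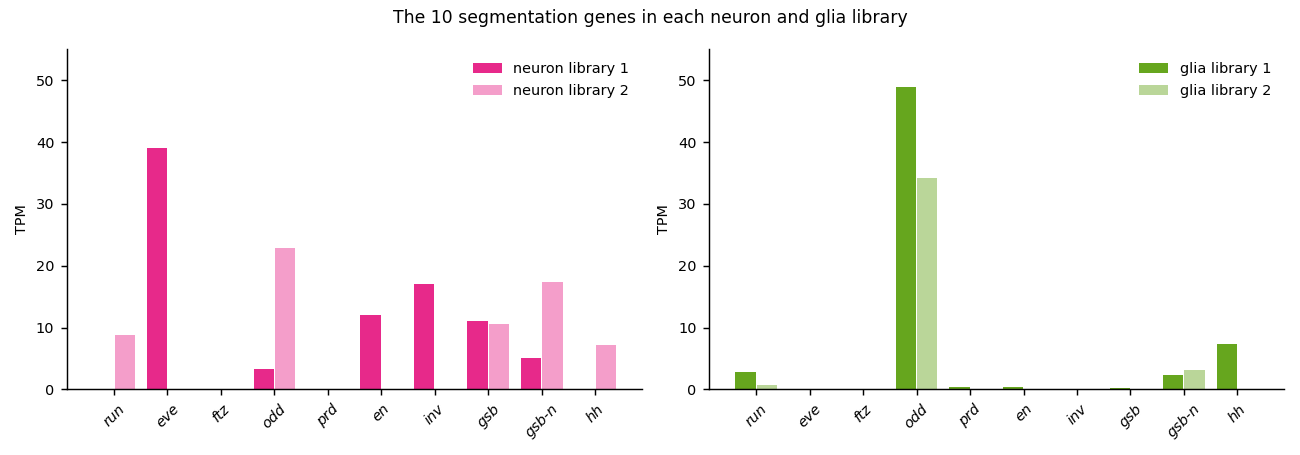
TPM of the 10 genes in each of the 2 neuron libraries (left) and the 2 glia libraries (right), 1 bar per library. In neurons eve, en and inv are in library 1 alone and run and hh in library 2 alone, while in glia odd is high in both.

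In glia odd was the one abundant member. The 2 libraries held 49.0 and 34.1 TPM (41.6 ± 10.5, SD, n = 2), from 323 and 242 counts, against 1.25, 2.47 and 1.71 TPM in the pool (1.81 ± 0.617, n = 3), and no other library of the series came above 22.8 TPM. The log2 change of the pool minus glia was -4.78 ± 1.03 (edgeR, adjusted p = 0.0134), and this was the single member called of 8, with 20.6% of all genes called. Leaving out any one pool library gave changes of -4.56, -5.05 and -4.72 with adjusted p = 0.0779, 0.0606 and 0.0775. Leaving out a glia library kept the call. Scaled by spike-in per cell, where the median of all genes moved from -0.00 to 3.45, the change was -1.19 (adjusted p = 0.396), still below that median. That scaling called 5 other members (run, en, inv, gsb and gsb-n) higher in the pool. Of all 9855 genes it called 5648 higher in the pool and 249 lower. The genes most like odd over 22 libraries were CG42524 (r = 0.864), CG42672 (0.846) and CG5758 (0.831). They were picked by that likeness, so their high level in glia adds no separate evidence. By correlation over the 8 group means they ranked 17, 56 and 52. The part of the fat body, blood cell and neuroblast markers of the glia libraries in the level of odd was not tested.

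The rest of the list was sparse in glia. Glia library 1 held 2.73 TPM of run and 7.35 of hh, and library 2 held 0.668 and 0 TPM. The level of gsb-n was 2.38 and 3.11 TPM, near that of the pool, and en, inv and gsb had 3, 1 and 1 counts over both libraries. By counts the pool was higher in en, inv and gsb by factors of 22.3 (7.46 to 109), 53.7 (9.44 to 2140) and 19.3 (3.28 to 783), and none of these passed in edgeR (adjusted p = 0.234, 0.163 and 0.165). Between neurons and glia 0 of 8 members passed in edgeR and 20.1% of all genes did. At an unadjusted p below 0.05 there were 3, DESeq2 called 3 (eve, inv and gsb) and limma 1 (gsb).

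No tested member passed in either comparison of handling. In the fit of 9 mushroom body libraries, odd, en and hh entered and 7 members were too low. After the 2 h wait edgeR called 0 of 3 members and 0.0228% of 8766 genes, with 0 at an unadjusted p below 0.05 and 0 by DESeq2 or limma. After 3 washes it called 0 of 3 and 0.833% of genes, with 0 at an unadjusted p below 0.05 and 0 by limma, while DESeq2 gave no adjusted p for these 3 genes. The ligand hh stood at 16.6, 11.3 and 12.2 TPM with 3 washes, at 9.62, 2.47 and 6.57 TPM with the wait and at 12, 2.67 and 8.40 TPM without either. Its change with washes was 0.81 ± 0.54 (edgeR, adjusted p = 0.786), and 1.49 (adjusted p = 0.0383) when scaled by spike-in, where the median of all genes was 0.77.

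Among the other genes of segmentation, the remaining pair-rule genes were uneven between lineages. Mushroom body neuroblasts held 0.129 ± 0.224 TPM of slp1 (SD, n = 3) and 1.05 ± 1.82 of slp2, forkhead factor genes, against 77.6 ± 13.9 and 184 ± 18.2 in antennal lobe neuroblasts. They held 202 ± 22.1 TPM of the zinc finger gene opa, against 7.41 ± 3.43 in antennal lobe and 1.25 ± 2.16 in type II neuroblasts. Of 5 such genes (h, slp1, slp2, opa and Ten-m), edgeR called 2 higher and 2 lower in mushroom body neuroblasts than in the pool, 3 higher and 1 lower in antennal lobe neuroblasts, and 1 lower in type II neuroblasts. Of all genes, 14.4%, 17.0% and 5.92% were called in these 3 comparisons, and the same shares stand behind the counts of the lists that follow. In glia h, a repressor of the Hes family, was called higher than in the pool in edgeR, at 471 ± 197 TPM (n = 2) against 3.07 ± 2.68. Of 16 genes of Wingless signalling and other segment polarity genes, 3 were higher and 1 lower in mushroom body neuroblasts than in the pool, 3 higher and 2 lower in antennal lobe, and 1 lower in type II neuroblasts. Of 5 tested gap genes, 1 was higher in mushroom body, 1 higher and 2 lower in antennal lobe, and 1 higher in type II neuroblasts. Of 4 tested other Pax genes, 1 was higher in mushroom body, 1 lower in antennal lobe and 1 lower in type II neuroblasts. With spike-in scaling, 293 of all 9249 genes were called higher and 870 lower in mushroom body neuroblasts than in the pool. The same counts were 218 and 243 in antennal lobe and 1036 and 66 in type II neuroblasts. In that scaling the pair-rule genes had 2 higher and 2 lower in mushroom body, 2 and 1 in antennal lobe and 1 and 1 in type II neuroblasts. The Wingless list then had 1 higher and 2 lower, 2 and 1, and 2 and 1 in the same order. The gap genes had 0 and 0, 1 and 1, and 1 and 0, and the Pax genes 1 and 0, 0 and 1, and 0 and 1.

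Of 15 Hedgehog pathway genes, 3 were higher in mushroom body neuroblasts than in the pool and 4 in antennal lobe neuroblasts, with none lower in edgeR, where 14.4% and 17.0% of all genes were called, while with spike-in scaling the calls were 0 higher and 2 lower in mushroom body and 0 in antennal lobe neuroblasts. That scaling moved the median of all genes to -0.68 and -0.28. The receptor and target gene ptc was among both, at 52.7 TPM in mushroom body and 49.7 TPM in antennal lobe neuroblasts against 24.2 TPM in the pool, with log2 changes of 1.17 ± 0.23 (adjusted p = 0.000953) and 1.08 ± 0.23 (adjusted p = 0.00193). So was ci, the transcription factor of the pathway, with changes of 0.73 ± 0.20 and 0.61 ± 0.20, and the glypican gene dlp, with 1.35 ± 0.23 and 0.69 ± 0.22. The median change of the list was 0.01 in mushroom body and 0.36 in antennal lobe neuroblasts, against -0.01 and -0.00 over all genes. In type II neuroblasts edgeR called 0 of 15, with 3 at an unadjusted p below 0.05 and 0 by DESeq2 or limma, and spike-in scaling called 2 higher. In glia ci was at 159 and 211 TPM. In edgeR 5 of the 15 genes were called higher there than in the pool and none lower, with 20.6% of all genes called. With spike-in scaling the direction turned, and 5 were called higher in the pool and none lower. In that scaling 5648 of all 9855 genes were called higher in the pool and 249 lower.

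**Figure D5:**
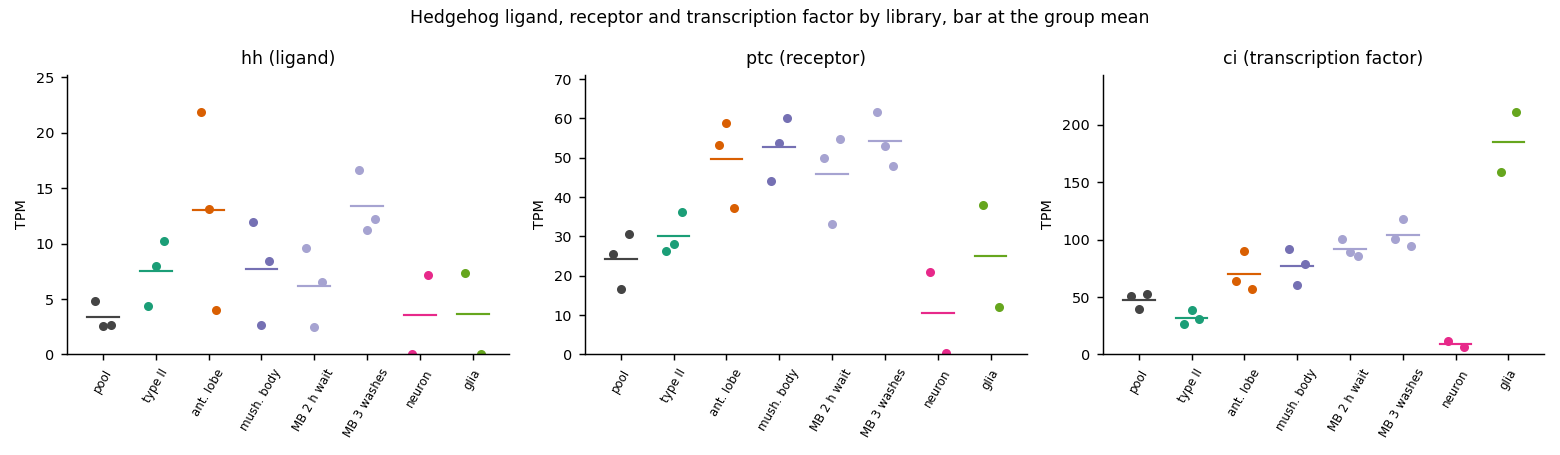
TPM of the ligand gene hh, its receptor gene ptc and the transcription factor gene ci by library, with a line at the group mean. The antennal lobe and mushroom body libraries hold 37.1 to 60.2 TPM of ptc, above the pool at 16.5 to 30.6, a difference in TPM that was not called higher with spike-in scaling, while hh overlaps between these groups.

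Of 12 partner genes of the members 9 were tested, and 2 were higher and 1 lower in mushroom body neuroblasts than in the pool, 4 higher and none lower in antennal lobe neuroblasts. In type II neuroblasts edgeR called 0 of 9, with 2 at an unadjusted p below 0.05, 1 called higher by DESeq2 and 0 by limma. With spike-in scaling the calls were 1 higher and 1 lower in mushroom body, 2 higher and none lower in antennal lobe and 1 higher and none lower in type II neuroblasts. Runt binds DNA with a partner encoded by Bro or Bgb. The level of Bro was 0.669 ± 0.243 TPM in the pool, 12.8 ± 5.68 in mushroom body, 18.1 ± 11.05 in antennal lobe and 5.23 ± 2.49 in type II neuroblasts. Its log2 change against the pool was 4.17 ± 1.05 in mushroom body (edgeR, adjusted p = 0.00858) and 4.67 ± 1.06 in antennal lobe neuroblasts (adjusted p = 0.00382), and it was not called in type II neuroblasts. The level of Bgb was 12.7 ± 6.06 TPM in the pool, 9.74 ± 3.39 in mushroom body, 9.56 ± 6.97 in antennal lobe and 12.8 ± 6.70 in type II neuroblasts, within the spread of the libraries. The Odd-family gene drm stood at 36.5 ± 27.8 TPM in mushroom body neuroblasts against 3.18 ± 1.55 in the pool (change 3.596 ± 0.97, adjusted p = 0.0260), where odd itself was not called.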

How the data were processed

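The authors deposited whole-number counts of reads per gene. The submitters' processing notes name HTSeq 0.6.1p1, STAR 2.4.0i, Bowtie2 2.1.0, cutadapt 1.7.1 and CASAVA, and the builds dm3 and mm10, with no role for any. The deposited TPM were made from those counts, since a factor per gene and one per library turned one into the other for 2397 well-covered genes. Positions are the authors' annotation (dm3). The RNA was amplified before library construction, per the labels' protocols, so counts are not independent molecules. Unassigned reads came to 7.92 to 23.8% of counts and stayed out, as did ERCC entries.

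Genes were tested with edgeR 4.0.16 in R 4.3.3 (quasi-likelihood, robust, TMM scaling, filterByExpr) in 3 fits: 4 neuroblast groups, 3 cell types and 3 mushroom body groups. A change from a group with 1 to 3 counts is given as a ratio of summed counts with a 95% Poisson interval. Alternatives were DESeq2 1.42.0, limma 3.58.1 on log2(TPM + 1), RLE and spike-in scaling, no filter, 1 fit of all libraries, a replicate block and leaving out each library. All 10 members are named, with up to 4 called genes of other lists. The members and lists were chosen with earlier results of these data known.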

Additional observations from a re-analysis of the deposited data

How the results depend on the processing

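The number of members called was recomputed under each alternative. Numbers within 1.5 times of the main one were taken as the same, and not all of them are listed. With spike-in scaling the number became 1 for mushroom body against type II, 1 for antennal lobe against the pool and 2 for the mean of the lineages. It became 1 for the pool against neurons, 5 for the pool against glia, 2 for neurons against glia and 1 for the washes. Of 9249 genes that scaling called 124 higher and 5155 lower for mushroom body against type II. It called 218 and 243 for antennal lobe against the pool and 225 and 126 for the mean of the lineages. Of 9855 genes it called 3301 higher and 828 lower for the pool against neurons, and 5648 and 249 against glia. For neurons against glia it called 2789 higher and 465 lower, and for the washes 2126 and 8 of 8766. With limma on TPM the number of members became 1 for mushroom body and 1 for antennal lobe against type II. It was 2, 1 and 2 for mushroom body, antennal lobe and type II against the pool, and 2 for the mean of the lineages. It was 1 and 2 for the pool against neurons and glia, and 1 for neurons against glia. Of 9249 genes limma called 570 higher and 416 lower for mushroom body and 476 and 494 for antennal lobe against type II. Against the pool it called 733 and 571 for mushroom body, 677 and 761 for antennal lobe and 227 and 221 for type II. For the mean of the lineages it called 481 and 509. Of 9855 genes limma called 1733 higher and 1514 lower for the pool against neurons. The counts were 1591 and 1240 for the pool against glia, and 1388 and 1278 for neurons against glia. With DESeq2 the number of members became 3 for antennal lobe against type II, 3 for type II against the pool and 4 for the mean of the lineages. It became 1 and 2 for the pool against neurons and glia, and 3 for neurons against glia. Of 9673 genes DESeq2 called 816 higher and 595 lower for antennal lobe against type II. It called 968 and 507 of 10199 for the mean of the lineages, and 1579 and 2086 of 10325 for the pool against neurons. Of 9935 genes DESeq2 called 493 higher and 292 lower for type II against the pool. Of 10070 genes it called 1340 higher and 2190 lower for the pool against glia, and 1658 and 1940 for neurons against glia. Without a filter the number of members became 2 for type II against the pool, with 459 of 13659 genes called higher and 275 lower. In 1 fit of 22 libraries it was 1 for mushroom body against type II, 0 for antennal lobe against type II, 0 for antennal lobe and 0 for type II against the pool, 1 for the mean of the lineages, 2 for the pool against glia and 2 for neurons against glia. Of 11240 genes that fit called 156 higher and 81 lower for antennal lobe against type II, and 198 and 126 for mushroom body against type II. Against the pool it called 288 and 108 for antennal lobe, 79 and 61 for type II and 177 and 85 for the mean of the lineages. For the pool against glia it called 2151 higher and 2580 lower, and for neurons against glia 1936 and 2682.

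Leaving out 1 library gave 1 to 2 members for mushroom body against type II or the pool, 1 to 3 for antennal lobe against type II, 1 to 2 for antennal lobe against the pool, 1 to 4 for the mean of the lineages, and 0 to 1 for each cell type comparison. Where this leaves a single neuron or glia library, it is assumed to vary like the other groups. The replicate block gave 0 members for the pool against glia, since odd was no longer called (log2 change -4.95, adjusted p = 0.111), and the same counts elsewhere within 1.5 times. Deviations of same-numbered libraries from their group means correlated at -0.07 to 0.11 over 18 lineage pairs. Whether such libraries shared a preparation cannot be told from these values. No called change of a member turned its sign. The run changes against mushroom body neuroblasts passed in all alternatives.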
